A study of Mus musculus with 12 samples.

Results

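Lacrimal glands of mice labelled ESS were compared with lacrimal glands of NOD mice aged 12 weeks, 3 RNA sequencing libraries against 3. The comparison covers every gene with at least 1 FPKM (sequenced fragments scaled to transcript length and to library size) in at least 3 of these 6 libraries, which is 9809 of the 11736 genes listed. The remaining 1927 genes were not tested. The other libraries of the study, 3 from control mice and 3 from NOD mice aged 8 weeks, entered the estimate of the spread and are given as reference values. The study's description names LGSS mice where the labels of the libraries have ESS, and both were taken to be the same group. The labels give an age for the NOD groups only, and they give no strain, sex or treatment for the ESS and control mice. Strain, age and disease therefore cannot be told apart in this comparison. Whether the libraries of a group stem from separate animals is not stated in the labels, and p-values accordingly measure the spread among libraries, which may be technical.

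The lacrimal gland is built from acini, whose cells secrete water, salts and proteins into the tear film, from ducts, and from a stroma that holds resident macrophages and plasma cells. In the mouse its most abundant transcripts code for small secreted proteins such as secretoglobins, lipocalins and exocrine gland-secreted peptides, several of which serve in chemical communication. The NOD strain is known for autoimmune diabetes, and its mice also develop lymphocytic inflammation of the lacrimal and salivary glands that is used as a model of Sjogren disease.

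The gland's own secreted proteins led all 6 libraries: the top 20 genes took 62.6% to 70.9% of the FPKM in ESS and 71.4% to 76.3% in NOD at 12 weeks. Secretoglobins took 27.4% to 31.3% in ESS and 38.9% to 44.2% in NOD. FPKM are shares of a library, so a gland with more secretoglobin RNA has lower values for other genes. On the scale of log2(FPKM + 1), the median gene was 0.12 higher in ESS than in NOD. For that reason log2 changes (ESS minus NOD at 12 weeks, with their standard error after the ± sign) are given relative to this median unless stated otherwise, and "NOD" without an age stands for 12 weeks. The p-values, from limma and adjusted over all 9809 genes by the Benjamini-Hochberg method, test the change before the median is removed. The depth of the 12 libraries is not known. In a bulk sample, fewer cells of a type and less RNA per cell cannot be told apart.

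At an adjusted p under 0.05, 2082 genes (21.2% of those tested) differed between ESS and NOD glands. Of these, 1632 genes (16.6%) were higher in ESS and 450 (4.59%) were lower. The 3 ESS libraries lay above all 3 NOD libraries in 32.5% of tested genes and below them in 9.59%. The called changes were mostly moderate, since 200 of the higher genes and 123 of the lower genes differed by at least 1 on the log2 scale, before the median is removed. A test against a 2-fold threshold passed 49 higher and 39 lower genes. The predominance of higher genes depended on the scaling: quantile normalization called 910 genes (9.28%) higher and 917 (9.35%) lower, centring of the library medians 936 (9.54%) and 825 (8.41%), and rescaling after removal of the top 50 genes 719 (7.33%) and 1037 (10.6%). Counts under "the 3 scalings" keep this order, and these shares are the background for the list counts below. Under all 3 scalings, 710 of the higher and 448 of the lower genes kept their call. The count also rested on single libraries: it was 1246 without NOD library 2 and 1333 without NOD library 3. The higher count was 970 and 982 without these and 1029 without ESS library 1, and the lower count was 276 without NOD library 2. High genes were called higher more often, at 26.4% in the highest of 4 level classes of equal size against 11.5% to 15.7% in the others.

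The control libraries, which took no part in the contrast, lay nearer to ESS. Among the 1632 higher genes the control range overlapped the ESS range in 1298 and the NOD range in 120. Among the 450 lower genes the overlaps were 354 and 58. Over all 9809 genes they were 8042 and 5003. The plot of mean levels shows the called genes on both sides of the diagonal, with the largest differences in genes that were near 0 in one of the groups.

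**Figure D1:**
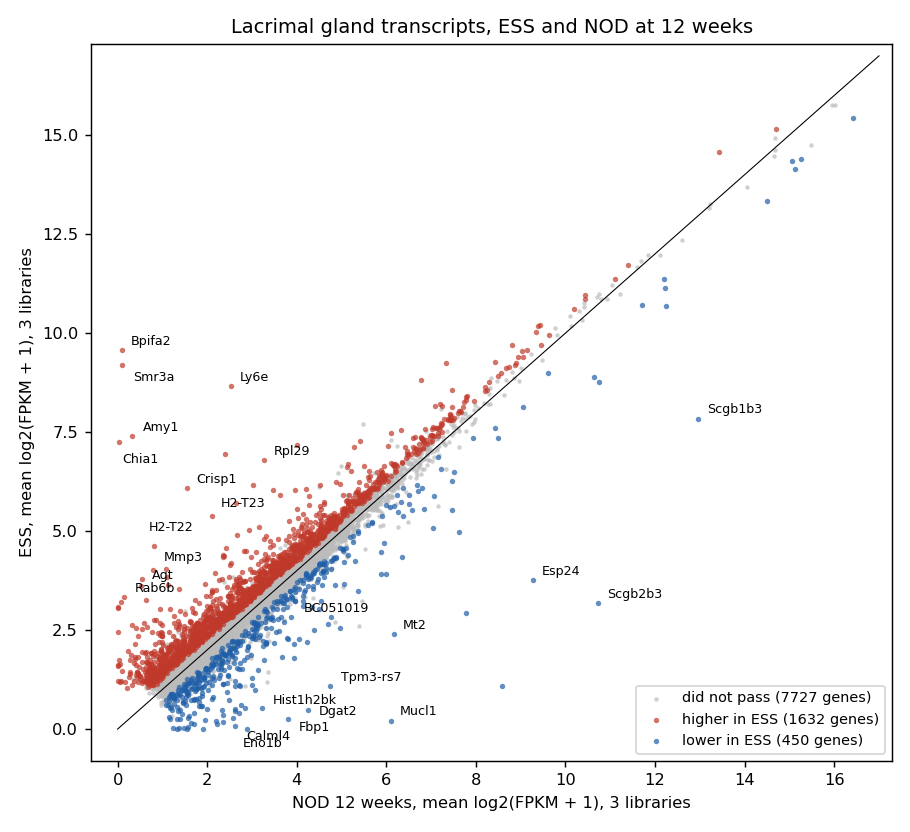
Mean log2(FPKM + 1) of the 3 ESS libraries (vertical) against the mean of the 3 NOD libraries at 12 weeks (horizontal), 1 point a gene, with the line of equal values. The 1632 genes called higher in ESS are red, the 450 called lower are blue, and the labelled genes are the 12 largest rises and 12 largest falls chosen by the rule for named genes.

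ESS library 3 differed from ESS libraries 1 and 2 in 1 respect that touches the largest changes. Bpifa2, the parotid secretory protein, had 6915, 4790.3 and 12.2 FPKM in ESS libraries 1, 2 and 3 and 0.207, 0 and 0 in the NOD libraries. Smr3a, which codes for a small androgen-regulated salivary protein, had 3937, 2826 and 17.02 in ESS and 0.217, 0 and 0 in NOD. ESS library 3 was thus far below the other ESS libraries, although still above every NOD library at 12 weeks in both genes. Control library 1 was near ESS library 3. The control libraries had 12.9, 1.08 and 0.269 FPKM of Bpifa2 and 16.4, 0.811 and 0 of Smr3a. The NOD libraries at 8 weeks had 0.462, 7.20 and 2.91 of Bpifa2 and 0.663, 10.6 and 4.07 of Smr3a.

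The same split was seen in the salivary amylase gene Amy1, with 1613, 980.0 and 2.02 FPKM in ESS and 0.363, 0.221 and 0.197 in NOD, and in Chia1, an acidic chitinase, with 1666, 966 and 1.22 in ESS and 0.0737, 0 and 0 in NOD. Crisp1, a cysteine-rich secretory protein, had 315, 173 and 4.71 FPKM in ESS and 1.70, 1.47 and 2.78 in NOD. These 5 genes together held 2.31% and 1.48% of the listed FPKM in ESS libraries 1 and 2, against 0.0053% in ESS library 3 and at most 0.00037% in a NOD library at 12 weeks. The control libraries held 0.0059%, 0.0013% and 0.00052%, and the NOD libraries at 8 weeks 0.00044%, 0.0032% and 0.0013%. All 5 passed the test with 3 ESS libraries (adjusted p = 0.00326 for Smr3a to 0.0145 for Chia1). With ESS library 3 as the only ESS library none passed, with adjusted p from 0.0634 for Chia1 to 0.211 for Crisp1.

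Of 19 salivary gland markers 13 had values and 7 were tested; Amy1, Bpifa2 and Smr3a were called higher and none lower. The median change of the 7 was 0.0037. Markers outside the test showed the same order: Dcpp1, a salivary secretory protein gene, had 1061, 504.1 and 0.456 FPKM in ESS and was listed at 0 in NOD, and Cst10 had 923, 538 and 0.67 in ESS and 0, 0.149 and 0 in NOD. Dcpp2, Dcpp3, Prb1 and Prol1 were listed at 0 in ESS library 3 and in all 3 NOD libraries at 12 weeks. The summed level of the list was 9937 to 23647 FPKM in ESS, 8551 to 8829 in NOD and 7259 to 9043 in control. In NOD the members named in the text were at or near 0. Its sum therefore came almost wholly from the 4 tested members that did not pass, which also weigh on the median. The part of salivary transcripts in the other differences was not tested.

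ESS library 3 was part of the mean from which genes were called, so its side among called genes is a description only. It was above all NOD libraries in 1626 of the 1632 higher genes and below all of them in 450 of the 450 lower genes. The 6 exceptions, named because they are few, were 2310022A10Rik, Cd74, Ncaph2, Tmem170b, Wfdc2 and Xxylt1.

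2310057J18Rik also varied within ESS, with 946, 362 and 25.5 FPKM against 49.98, 36.9 and 44.2 in NOD, and did not pass (adjusted p = 0.106). Its value in ESS library 3 lay below all NOD libraries. In the first principal component of the 6 libraries, with 65.6% of the variance, the 3 ESS libraries stood on one side and the 3 NOD libraries on the other. The second, with 11.7%, set ESS library 3 (-21.3) apart from ESS libraries 1 (14.5) and 2 (1.94). With ESS library 3 alone against the 3 NOD libraries, and its spread taken from the other groups, 380 genes (3.87%) were called higher and 209 (2.13%) lower. Of these, 371 and 180 were among the genes called the same way with all 3.

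**Figure D2:**
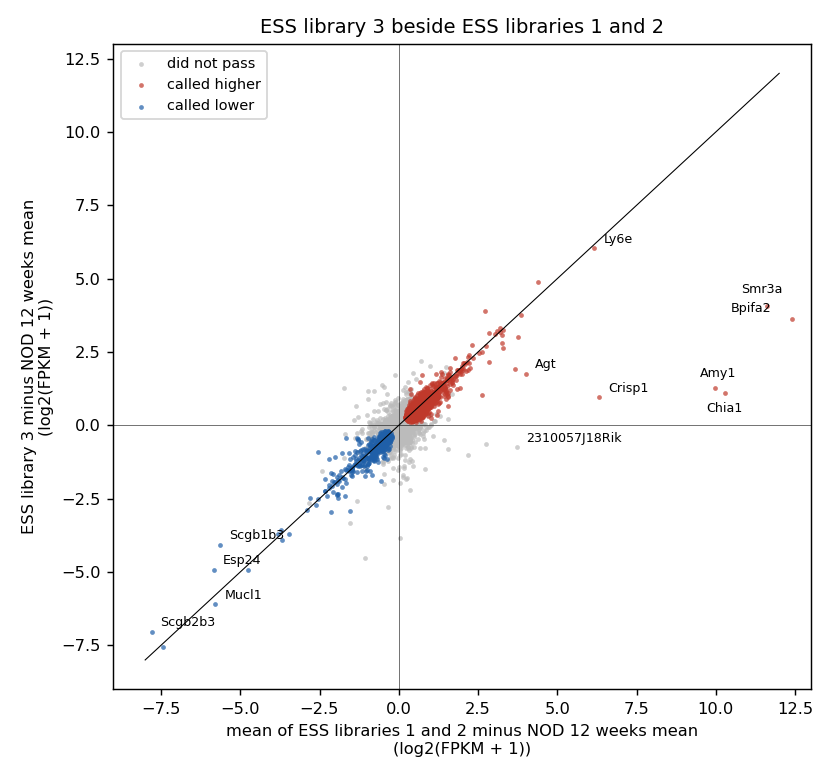
Change from the NOD 12 weeks mean, on the log2(FPKM + 1) scale before the median is removed, in ESS library 3 (vertical) and in the mean of ESS libraries 1 and 2 (horizontal), 1 point a gene. Bpifa2, Smr3a, Amy1, Chia1 and Crisp1 lie far to the right of the line of equal change; of Bpifa2, ESS library 3 had 12.2 FPKM where the others had 6915 and 4790.

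The 4 largest falls among the named genes, Scgb2b3, Mucl1, Esp24 and Scgb1b3, were all in genes of secreted tear or mucin-like proteins. Scgb2b3 and Scgb1b3 code for 2 secretoglobin chains and lie side by side on chromosome 7 (GRCm38 chr7:31359038-31362072 and chr7:31375592-31376916). Scgb2b3 had 5.18, 8.44 and 11.9 FPKM in the ESS libraries and 1377, 1926 and 1848 in the NOD libraries at 12 weeks. Its mean of 8.51 ± 3.37 in ESS and 1717 ± 297 in NOD (SD, n = 3) made it 202-fold higher in NOD (log2 change -7.67 ± 0.45, adjusted p = 4.77e-07). Control libraries had 1.99, 11.4 and 9.42 and NOD libraries at 8 weeks 3314, 3310.0 and 2023, so the gene was low in ESS and control and high at both NOD ages.

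Scgb1b3 followed the same order, with 96.8, 257 and 473 FPKM in ESS and 6198, 9078 and 8974 in NOD (log2 change -5.24 ± 0.44, adjusted p = 9.64e-06). Of 18 tested secretoglobins 9 were lower and 2 higher, where 4.59% and 16.6% of all genes were, and the median relative change was -0.93. The 2 higher members were Scgb1b27 (119.8, 50.5 and 22.2 FPKM in ESS, 3.95, 5.05 and 7.00 in NOD, adjusted p = 0.000725) and Scgb2b27 (68.4, 31.2 and 14.5 in ESS, 7.07, 5.61 and 7.18 in NOD, adjusted p = 0.00485). Their ESS values were highest in library 1 and lowest in library 3. Under the 3 scalings the counts were 9, 9 and 10 lower and 3, 2 and 2 higher.

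Scgb1b2, the gene with the highest mean FPKM over the 6 libraries, had 42568, 44229 and 46327 FPKM in ESS and 76283, 89128 and 99383 in NOD (log2 change -1.11 ± 0.24, adjusted p = 0.012). Scgb2b2 (log2 change -0.85 ± 0.15, adjusted p = 0.00551), Scgb2b20 (log2 change -1.01 ± 0.24, adjusted p = 0.0199) and Scgb1b7 (log2 change -1.10 ± 0.26, adjusted p = 0.0191) were also lower in ESS. Scgb1b20 did not pass (log2 change -0.84 ± 0.25, adjusted p = 0.0669). Near-identical copies (transcripts matching at 95% identity or more across 50% of their length or more) exist for Scgb1b3 (5), Scgb1b7 (5) and Scgb1b20 (3), and with no record of how shared reads were counted, the split between such members is uncertain.

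Among 28 tested pheromone, urinary and lipocalin tear protein genes, 9 were lower and 5 higher in ESS, with a median of -0.29. Over all tested genes 4.59% were lower and 16.6% higher, so the higher count was near the share of all genes. Under the 3 scalings 10, 9 and 12 members were lower and 4, 2 and 2 higher. Mucl1, a mucin-like gene, had 0.313, 0.187 and 0 FPKM in ESS and 56.3, 85.8 and 64.1 in NOD (log2 change -6.01 ± 0.16, adjusted p = 5.52e-10). Esp24, an exocrine gland-secreted peptide gene, had 7.36, 13.4 and 19.5 FPKM in ESS and 515, 664 and 697 in NOD (log2 change -5.65 ± 0.37, adjusted p = 1.18e-06). Neither gene overlapped between the groups, and control libraries were as low as ESS or lower (0, 0.163 and 0.128 for Mucl1, 1.52, 3.27 and 6.82 for Esp24).

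The other lower members were all Esp genes of chromosome 17: Esp34 (log2 change -2.23), Esp23 (-2.06), Esp16 (-1.68), Esp38 (-1.34), Esp31 (-1.20), Esp3 (-0.94) and Esp36 (-0.75), with adjusted p from 2.51e-05 for Esp38 to 0.0282 for Esp36. The higher members were Wfdc12, a whey acidic protein domain gene (451, 427 and 479.9 FPKM in ESS, 99.8, 120.1 and 105 in NOD, adjusted p = 0.000277), the major urinary protein genes Mup6 (log2 change 0.85 ± 0.097, adjusted p = 3.08e-05) and Mup4 (log2 change 0.31 ± 0.11, adjusted p = 0.0153), the odorant-binding lipocalin Obp1b (log2 change 0.32 ± 0.11, adjusted p = 0.0166) and Car6, the secreted carbonic anhydrase (log2 change 0.32 ± 0.12, adjusted p = 0.0191). Mup4 was not called under any of the 3 scalings, and Obp1b and Car6 were called under 1 each. Esp16 and Obp1b have near-identical copies, so their values are uncertain. Obp1a (log2 change -0.38 ± 0.13, adjusted p = 0.185) and Mucl2 (log2 change -0.32 ± 0.17, adjusted p = 0.466), among the most abundant genes, did not pass, and their small differences turned positive under quantile normalization. The plot of values by library shows these genes beside those described next.

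**Figure D3:**
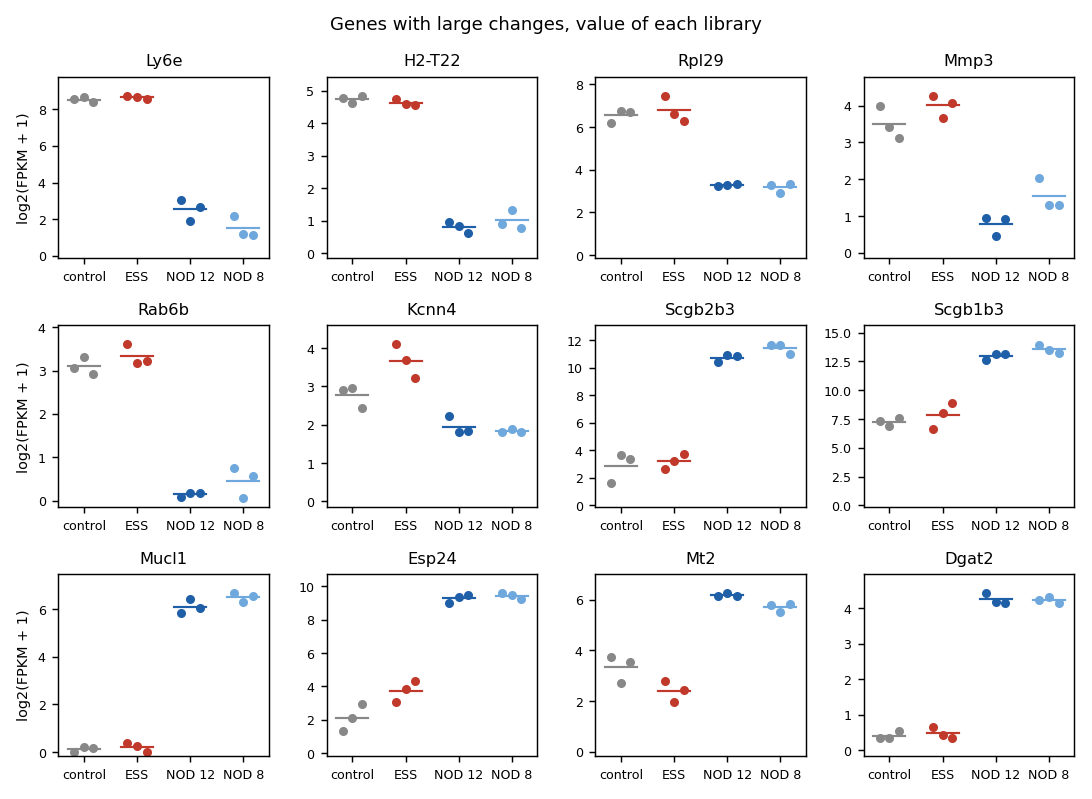
Values of 12 named genes in each of the 12 libraries as log2(FPKM + 1), 1 point a library and a bar for the mean of each group of 3. Ly6e, H2-T22, Rpl29, Mmp3, Rab6b and Kcnn4 are higher in ESS than in NOD at 12 weeks, and Scgb2b3, Scgb1b3, Mucl1, Esp24, Mt2 and Dgat2 are lower, with no overlap between those groups.

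Genes of antigen presentation were higher in ESS. Class I molecules present peptides from inside the cell to CD8 T cells, and class II molecules present peptides taken up by macrophages, dendritic cells and B cells to CD4 T cells. Of 16 tested class I genes 8 were higher and 1 lower (median 0.29), and of 8 tested class II genes 7 were higher and none lower (median 1.30). Under the 3 scalings 5, 6 and 4 class I genes and 5, 5 and 5 class II genes were called higher. The shares over all tested genes were 16.6% higher and 4.59% lower, and 9.28%, 9.54% and 7.33% higher under the scalings.

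The classical class I heavy chain H2-K1 (GRCm38 chr17:33996017-34000333) had 78.4, 57.9 and 61.2 FPKM in ESS and 12.4, 8.44 and 9.64 in NOD, with 73.2, 77.9 and 63.8 in control and 5.82, 7.06 and 4.09 in NOD at 8 weeks. Its mean was 65.8 ± 11.0 in ESS and 10.1 ± 2.00 in NOD (SD, n = 3), a 6.49-fold difference (log2 change 2.46 ± 0.18, adjusted p = 1.66e-06). H2-D1 differed less, with 160.2, 121 and 127 FPKM in ESS and 114, 92.7 and 92.1 in NOD (log2 change 0.32 ± 0.11, adjusted p = 0.0171). Beta-2-microglobulin, B2m, the shared light chain, did not pass, with 241, 148 and 173 in ESS and 167, 95.8 and 103 in NOD (log2 change 0.51 ± 0.22, adjusted p = 0.0672); its ranges overlapped.

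The nonclassical class I genes H2-T22 and H2-T23 showed wider gaps. H2-T22 had 25.7, 23.02 and 22.7 FPKM in ESS and 0.939, 0.79 and 0.545 in NOD (log2 change 3.70 ± 0.14, adjusted p = 9.55e-09). H2-T23, which codes for the Qa-1 molecule, had 45.4, 36.9 and 39.6 FPKM in ESS and 2.17, 4.13 and 3.94 in NOD (log2 change 3.14 ± 0.17, adjusted p = 1.32e-07). Their neighbour H2-T24 went the other way, with 5.98, 5.59 and 2.79 FPKM in ESS and 11.3, 11.5 and 10.6 in NOD (log2 change -1.24 ± 0.23, adjusted p = 0.00532). Class I genes are similar in sequence, and how shared reads were counted is not recorded, so single values are uncertain. Reads of every group were placed on GRCm38. The part of sequence differences between strains in the values of the H2 genes was not tested.

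The class II chains H2-Aa, H2-Ab1 and H2-Eb1 were all higher in ESS. H2-Aa had 74.4, 57.6 and 66.7 FPKM in ESS and 24.3, 14.0 and 15.8 in NOD (log2 change 1.73 ± 0.19, adjusted p = 3.49e-05). H2-Ab1 had 63.0, 49.5 and 63.7 FPKM in ESS and 22.6, 16.3 and 16.6 in NOD (log2 change 1.501 ± 0.15, adjusted p = 1.74e-05). H2-Eb1 had 111, 72.0 and 92.2 FPKM in ESS and 50.6, 32.5 and 28.9 in NOD (log2 change 1.17 ± 0.21, adjusted p = 0.00139). No NOD library at 12 weeks reached an ESS library in any of the 3. The peptide-loading chain H2-DMb1 rose by a log2 change of 1.83 (adjusted p = 6.21e-07) and has 1 near-identical copy. The invariant chain Cd74 had 217, 171 and 114 FPKM in ESS and 123, 81.4 and 86.9 in NOD (log2 change 0.63 ± 0.24, adjusted p = 0.042), overlapped between the groups and was called under none of the 3 scalings.

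The H2 genes share a stretch of chromosome 17, the histocompatibility region. Of 84 tested genes between its first and last H2 gene (GRCm38 chr17:33996017-37274484), 38.1% were called, 28 higher and 4 lower, against 26.6% of genes elsewhere on chromosome 17 and 21.2% of all genes. Among the 67 genes there without an H2 symbol 28.4% were called.

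Some interferon-response genes were higher in ESS, and most did not pass. Interferons induce them through factors that bind the interferon-stimulated response element, written GAAA-NN-GAAA with N for any base, in their promoters. Of 16 tested genes of the type I list 4 were higher and none lower (median 0.10), and under each of the 3 scalings 2 were. These counts lay near the shares over all tested genes, 16.6% higher and 9.28%, 9.54% and 7.33% under the scalings. Ly6e (GRCm38 chr15:74955051-74959905), a surface protein anchored by a lipid, had the largest rise of the named genes that also passed with ESS library 3 alone, with 428, 403 and 379 FPKM in ESS against 7.24, 2.74 and 5.23 in NOD at 12 weeks. Control libraries had 374, 408 and 337 and NOD libraries at 8 weeks 3.46, 1.26 and 1.22. Its mean was 403 ± 24.3 in ESS and 5.07 ± 2.25 in NOD (SD, n = 3), 79.6-fold higher in ESS (log2 change 6.01 ± 0.29, adjusted p = 5.85e-08).

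Oas1a, an antiviral oligoadenylate synthetase with 1 near-identical copy, had 10.3, 3.49 and 4.87 FPKM in ESS and 1.59, 1.48 and 1.59 in NOD (log2 change 1.26 ± 0.29, adjusted p = 0.0056). Bst2 (tetherin; log2 change 0.51 ± 0.17, adjusted p = 0.0186) and Ifi27 (log2 change 0.29 ± 0.12, adjusted p = 0.0367) passed as well, but under none of the 3 scalings. Other much-used members of the list did not pass: Isg15 had 7.55, 2.44 and 5.24 in ESS and 3.17, 2.40 and 1.94 in NOD (adjusted p = 0.128). Ifit1 had 4.71, 1.104 and 2.03 FPKM in ESS and 1.104, 3.18 and 1.61 in NOD (adjusted p = 0.75). Irf7 had 4.47, 1.95 and 3.30 FPKM in ESS and 3.11, 3.06 and 3.04 in NOD (adjusted p = 0.975). In each the ESS range spanned part or all of the NOD range, with ESS library 1 highest.

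Of 10 tested interferon gamma response genes 3 were higher (median 0.40), and the same count was called under each scaling. They were the proteasome activator genes Psme2 (22.4, 17.2 and 18.3 FPKM in ESS, 12.0, 13.1 and 11.8 in NOD, adjusted p = 0.002) and Psme1 (11.3, 11.0 and 10.7 FPKM in ESS and 7.90, 6.43 and 6.74 in NOD, adjusted p = 0.00532), and the transcription factor Irf1 (5.81, 3.84 and 4.25 FPKM in ESS and 1.81, 2.69 and 2.63 in NOD, adjusted p = 0.0116). Psme2 has 1 near-identical copy. Of all tested genes 16.6% were higher, and 9.28%, 9.54% and 7.33% under the scalings.

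Promoter windows of 300 bases (250 before to 50 after the gene start, RefSeq, GRCm38.p6) were searched for this element on both strands. It was present in 3.44% of 32851 windows and in 3.74% of those of tested genes. It was found in 8 of 12 type I members with a window, 6 of 9 interferon gamma members and 4 of 13 class I members. Those called higher and holding it were Bst2, Oas1a, Psme1, Erap1, H2-T22 and H2-T23. A match describes the letters only. The windows of 4 of them follow because these genes combine the match with a difference between ESS and NOD under all 3 scalings; the match is in capitals, also where it lies on the other strand and reads TTTC-NN-TTTC, and the Oas1a window has 2 overlapping matches. The windows are H2-T22 at chr17:36042693-36042992 (minus strand), H2-T23 at chr17:36032652-36032951 (minus), Oas1a at chr5:120907476-120907775 (minus) and Psme1 at chr14:55578244-55578543 (plus).
H2-T22: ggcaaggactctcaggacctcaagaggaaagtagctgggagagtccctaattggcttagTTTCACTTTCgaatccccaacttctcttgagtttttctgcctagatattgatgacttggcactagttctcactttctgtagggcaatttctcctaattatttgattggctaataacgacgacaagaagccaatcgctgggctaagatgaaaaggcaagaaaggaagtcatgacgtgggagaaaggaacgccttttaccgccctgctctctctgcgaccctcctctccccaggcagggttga
H2-T23: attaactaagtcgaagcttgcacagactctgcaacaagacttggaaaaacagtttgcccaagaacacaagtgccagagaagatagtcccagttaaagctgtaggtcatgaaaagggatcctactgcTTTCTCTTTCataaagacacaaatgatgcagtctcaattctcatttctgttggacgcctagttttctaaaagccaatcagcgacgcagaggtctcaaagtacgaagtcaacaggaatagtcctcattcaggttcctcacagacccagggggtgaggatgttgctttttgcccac
Oas1a: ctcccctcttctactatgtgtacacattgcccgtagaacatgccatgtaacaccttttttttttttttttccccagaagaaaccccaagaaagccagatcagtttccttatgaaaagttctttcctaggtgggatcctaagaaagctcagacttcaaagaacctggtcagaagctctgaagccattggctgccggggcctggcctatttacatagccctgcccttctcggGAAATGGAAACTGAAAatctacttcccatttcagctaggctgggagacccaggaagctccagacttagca
Psme1: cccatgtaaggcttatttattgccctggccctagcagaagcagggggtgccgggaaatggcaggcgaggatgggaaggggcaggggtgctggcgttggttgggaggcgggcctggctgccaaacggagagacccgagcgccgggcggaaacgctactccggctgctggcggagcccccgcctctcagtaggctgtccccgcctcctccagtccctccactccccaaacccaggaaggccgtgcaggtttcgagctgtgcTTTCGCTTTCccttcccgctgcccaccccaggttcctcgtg

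Most macrophage markers were higher in ESS, and 2 plasma cell markers were lower. Over all tested genes 16.6% were higher and 4.59% lower, and 9.28%, 9.54% and 7.33% were higher under the 3 scalings. Of 16 tested macrophage and monocyte markers 12 were higher and none lower, with a median of 0.97, and 11, 11 and 10 were called higher under the 3 scalings. Their summed level was 288 to 478 FPKM in ESS, 131 to 201 in NOD at 12 weeks, 246 to 397 in control and 127 to 137 in NOD at 8 weeks. The part of cell numbers in this was not tested.

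Tyrobp, the adaptor of activating receptors on myeloid cells, had 32.1, 23.7 and 25.2 FPKM in ESS and 11.4, 10.2 and 11.1 in NOD (log2 change 1.102 ± 0.18, adjusted p = 0.0006). Fcer1g, the gamma chain of Fc receptors, had 29.2, 15.5 and 17.31 FPKM in ESS and 7.43, 2.27 and 3.77 in NOD (log2 change 1.92 ± 0.30, adjusted p = 0.000746). The Fc receptor Fcgr3 had 6.75, 5.91 and 6.80 FPKM in ESS and 2.70, 1.49 and 1.52 in NOD (log2 change 1.27 ± 0.21, adjusted p = 0.000694). The lysozyme Lyz2 had 138, 80.9 and 87.9 FPKM in ESS and 62.6, 37.9 and 37.1 in NOD (log2 change 1.02 ± 0.27, adjusted p = 0.0107). In all 4 the lowest ESS library was above the highest NOD library, and in Tyrobp, Fcer1g and Lyz2 library 1 was the highest of each group. Lyz2 has a near-identical copy, Lyz1.

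The 3 chains of complement C1q, made in tissues mainly by macrophages, were all higher: C1qa by a log2 change of 0.93 (adjusted p = 0.00218), C1qb by a log2 change of 1.28 (adjusted p = 0.00503) and C1qc by a log2 change of 1.05 (adjusted p = 0.00308). They were the only members called among 12 tested complement genes, under the 3 scalings too. The share called higher over all tested genes was 16.6%, and 9.28%, 9.54% and 7.33% under the scalings. Ctss, the cathepsin that trims the invariant chain of class II, had 62.2, 32.8 and 47.1 FPKM in ESS and 21.1, 11.4 and 14.2 in NOD (log2 change 1.42 ± 0.27, adjusted p = 0.00191). The integrin Itgax, the single tested dendritic cell marker, had 2.31, 1.36 and 1.54 FPKM in ESS and 0.842, 0.605 and 0.38 in NOD (adjusted p = 0.00794). Cd68 (log2 change 1.01 ± 0.31, adjusted p = 0.0242), Adgre1 (log2 change 0.52 ± 0.18, adjusted p = 0.0242), Aif1 (log2 change 0.51 ± 0.18, adjusted p = 0.0289) and Ly86 (log2 change 0.42 ± 0.13, adjusted p = 0.0102) completed the called members.

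Jchain, which joins the subunits of secreted IgA and IgM, had 12.9, 16.3 and 13.7 FPKM in ESS against 66.1, 52.2 and 57.4 in NOD at 12 weeks. Control libraries had 2.73, 2.09 and 1.71 and NOD libraries at 8 weeks 35.0, 36.6 and 23.9, so that ESS lay between control and both NOD ages without overlap. Its mean was 14.3 ± 1.80 in ESS and 58.6 ± 7.01 in NOD at 12 weeks (SD, n = 3), 4.10-fold higher in NOD (log2 change -2.08 ± 0.17, adjusted p = 9.64e-06). Mzb1, a chaperone of antibody assembly, had 0.601, 0.332 and 1.25 FPKM in ESS and 3.84, 3.62 and 2.59 in NOD (log2 change -1.48 ± 0.18, adjusted p = 0.000377). Mzb1 has 1 near-identical copy, so its values are uncertain.

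Jchain and Mzb1 were the only plasma cell markers called of 8 tested (3 lower under each scaling), and the median of the 8 was -0.044. The share called lower over all tested genes was 4.59%, and 9.35%, 8.41% and 10.6% under the scalings. The summed level of all 12 markers was 647 to 713 FPKM in ESS and 562 to 668 in NOD. Members that also serve other secretory cells did not pass, among them Xbp1 (log2 change 0.048 ± 0.088, adjusted p = 0.195), Sdc1 (log2 change -0.088 ± 0.11, adjusted p = 0.868) and Txndc5 (log2 change 0.79 ± 0.38, adjusted p = 0.116). Derl3 did not pass either, with 48.9, 48.6 and 37.1 FPKM in ESS and 67.4, 54.9 and 50.8 in NOD (log2 change -0.48 ± 0.12, adjusted p = 0.0596). Its ESS libraries all lay below the NOD libraries, and it was called lower under all 3 scalings. The plasma cell receptor Tnfrsf17, too low to be tested, had 0.191, 0 and 0 FPKM in ESS and 0.856, 0.451 and 0.329 in NOD, and the transcription factor Irf4 had 0.127, 0.129 and 0.115 in ESS and 0.491, 0.522 and 0.686 in NOD. Of the other markers too low to be tested, Pou2af1, a B-lineage coactivator, had 0.299, 0.414 and 0.466 in ESS and 0.814, 1.03 and 0.674 in NOD. Prdm1, the transcription factor Blimp-1, went the other way, with 0.674, 0.776 and 0.742 in ESS and 0.589, 0.499 and 0.361 in NOD. Cd79a, the 1 B cell marker with values of 11, had 0.305, 0.216 and 0.194 in ESS and 1.097, 0.694 and 0.604 in NOD.

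T and NK cell markers were near the lower limit of the data. Of 17, 9 had values and Thy1 alone was tested (log2 change 0.45 ± 0.21, adjusted p = 0.0755). Of the 8 with values that were too low to be tested, Cd2, Cd4, Gzmb, Il7r, Lck, Ltb and Nkg7 had a higher mean in ESS and Gzma a lower one. Cd4 had 0.704, 0.224 and 0.765 FPKM in ESS and 0.399, 0.166 and 0.202 in NOD, with overlap. Nkg7 had 2.80, 0.823 and 2.36 in ESS and 0.663, 0.799 and 0.371 in NOD. Gzma, a granzyme of cytotoxic cells, had 0.309, 0.15 and 0.56 in ESS and 2.75, 0.251 and 0.942 in NOD, with overlap. Of 7 tested chemokine and lymphoid adhesion genes 4 were higher: Ltbr, the lymphotoxin beta receptor (log2 change 0.27 ± 0.079, adjusted p = 0.00524), Cxcl16 (log2 change 0.49 ± 0.16, adjusted p = 0.0172), Ccl5 (log2 change 0.73 ± 0.26, adjusted p = 0.0367) and Ccl8 (log2 change 0.94 ± 0.35, adjusted p = 0.0488), of which 2, 2 and 1 were called under the scalings. Of all tested genes 16.6% were higher, and 9.28%, 9.54% and 7.33% under the scalings. Cxcl13, the B cell chemokine, did not pass (log2 change -0.08 ± 0.33, adjusted p = 0.947). None of 5 mast cell markers passed, and no neutrophil marker was high enough to be tested.

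**Figure D4:**
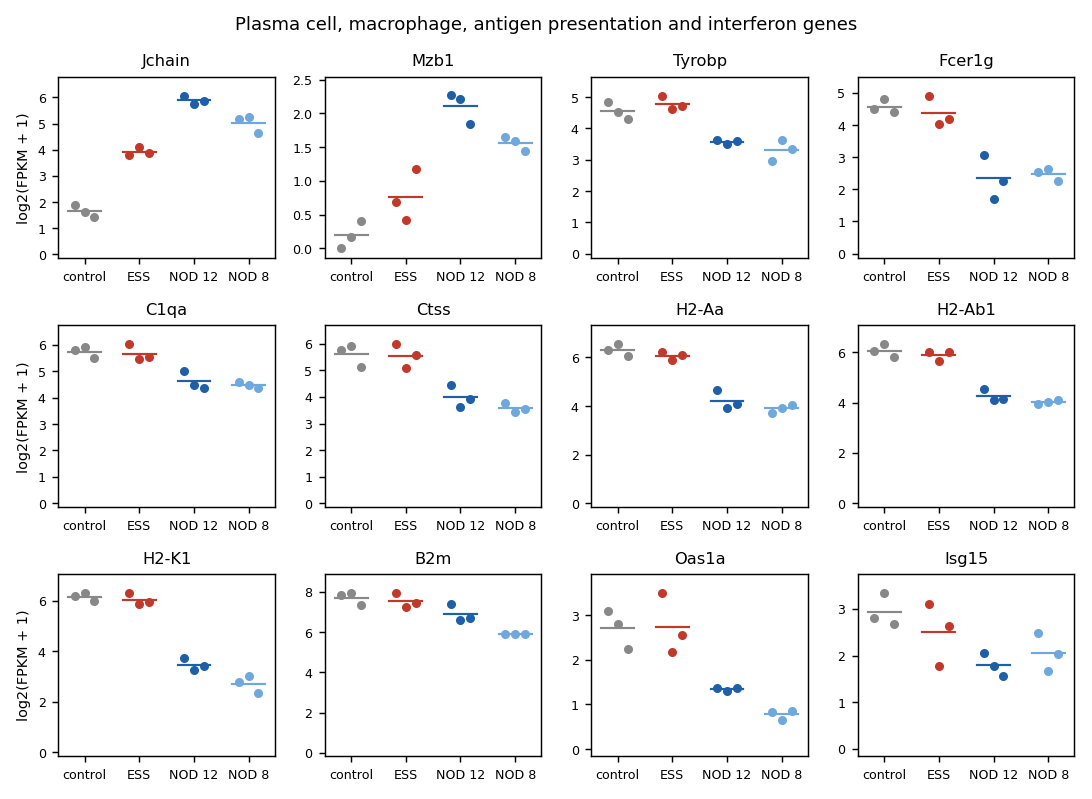
Values of 12 immune genes in each library as log2(FPKM + 1), 1 point a library and a bar for the mean of each group of 3. Jchain and Mzb1 are lowest in control and highest in NOD at 12 weeks, Tyrobp, Fcer1g, C1qa, Ctss, H2-Aa, H2-Ab1, H2-K1 and Oas1a are higher in all 3 ESS libraries than in NOD at 12 weeks, and B2m and Isg15 overlap between these groups.

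Metallothioneins, small proteins that bind zinc and copper, were lower in ESS. Mt2 had 5.89, 2.93 and 4.48 FPKM in ESS against 68.8, 75.1 and 69.7 in NOD at 12 weeks, with means of 4.43 ± 1.48 and 71.2 ± 3.44 (SD, n = 3), 16.1-fold higher in NOD (log2 change -3.89 ± 0.25, adjusted p = 9.75e-07). Mt1 had 24.5, 20.7 and 18.7 FPKM in ESS and 56.7, 60.4 and 55.9 in NOD, 2.71-fold higher in NOD (log2 change -1.53 ± 0.15, adjusted p = 5.24e-05). Control libraries had 12.4, 5.52 and 10.8 FPKM of Mt2 and 37.8, 36.5 and 47.6 of Mt1, so ESS was below control for Mt1 and overlapped it for Mt2, and NOD at 8 weeks had 53.9, 44.8 and 55.7 and 59.3, 45.0 and 67.2.

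The metal response element, TGCACNC or TGCGCNC, is the site through which metals induce these genes. At 7 letters it is common by its length and was found on either strand in 25.7% of all promoter windows and 40.8% of those of tested genes. At least 3 matches, as in Mt1, were found in 1.97% of all windows, and at least 4, as in Mt2, in 0.518%. The windows of both genes, neighbours on chromosome 8, are printed because both fell; they lie at chr8:94178839-94179138 (Mt1, plus strand) and chr8:94172368-94172667 (Mt2, plus strand) of GRCm38.p6, with the matches in capitals, those on the other strand reading GNGTGCA or GNGCGCA.
Mt1: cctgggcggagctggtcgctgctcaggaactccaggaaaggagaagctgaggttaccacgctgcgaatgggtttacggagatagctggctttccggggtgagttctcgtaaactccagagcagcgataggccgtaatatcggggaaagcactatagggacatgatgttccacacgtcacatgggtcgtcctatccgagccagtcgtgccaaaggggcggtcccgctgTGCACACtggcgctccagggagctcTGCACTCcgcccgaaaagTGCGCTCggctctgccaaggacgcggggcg
Mt2: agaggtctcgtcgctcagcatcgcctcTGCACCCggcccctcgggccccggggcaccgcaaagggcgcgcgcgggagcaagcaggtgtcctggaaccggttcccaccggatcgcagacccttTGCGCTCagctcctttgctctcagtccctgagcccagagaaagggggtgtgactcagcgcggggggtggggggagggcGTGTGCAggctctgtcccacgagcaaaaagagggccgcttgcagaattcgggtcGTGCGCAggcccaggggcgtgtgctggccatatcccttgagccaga

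Of the 17 tested thyroid, retinoid and detoxification genes, which include both metallothioneins, 4 were higher and 2 lower (median 0.082), and 1 was higher under each scaling. The shares over all tested genes were 16.6% higher and 4.59% lower. Gstp1, a glutathione transferase with 2 near-identical copies, rose by a log2 change of 0.63 (adjusted p = 0.00293). The glucocorticoid response list of 12 tested genes holds both metallothioneins too; beside them Tsc22d3 (log2 change 0.42 ± 0.10, adjusted p = 0.0041) and Sgk1 (log2 change 0.50 ± 0.20, adjusted p = 0.0425) were higher, the latter under no scaling.

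Enzymes of fat and sugar metabolism were among the largest single changes. Dgat2, which makes the last step of triglyceride synthesis, had 0.57, 0.363 and 0.272 FPKM in ESS and 20.5, 16.99 and 16.8 in NOD, with 0.265, 0.266 and 0.459 in control and 17.6, 19.0 and 16.8 in NOD at 8 weeks (log2 change -3.89 ± 0.11, adjusted p = 1.27e-09). Fbp1, a key enzyme of gluconeogenesis, had 0.365, 0.177 and 0.0824 FPKM in ESS and 15.5, 12.4 and 11.4 in NOD (log2 change -3.66 ± 0.16, adjusted p = 4.39e-08). Both were near 0 in ESS and control and present in every NOD library. Of 15 tested adipocyte and triglyceride genes, Dgat2 was the 1 lower and the malic enzyme Me1 the 1 higher (log2 change 0.54 ± 0.087, adjusted p = 0.000301). Of 20 sterol synthesis and uptake genes, 1 was lower and 1, Ebp, higher (log2 change 0.24 ± 0.11, adjusted p = 0.0376), while the 3 scalings called 4, 3 and 4 lower and none higher.

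Among 19 tested enzymes of one-carbon, serine and cysteine metabolism 6 were higher and 3 lower (median -0.13; 3, 3 and 2 higher and 4, 4 and 5 lower under the scalings). Among all tested genes 16.6% were higher and 4.59% lower. Under the scalings 9.28%, 9.54% and 7.33% of all tested genes were higher and 9.35%, 8.41% and 10.6% lower. Phgdh, the first enzyme of serine synthesis, with 7 near-identical copies, rose by a log2 change of 0.41 (adjusted p = 0.00481). Sardh, the sarcosine dehydrogenase, was lower (log2 change -0.83 ± 0.14, adjusted p = 0.004), as was Mthfd1l (log2 change -0.57 ± 0.10, adjusted p = 0.0105).

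Of 19 tested genes of acinar identity and fluid secretion 4 were higher and 1 lower (median 0.029), which is near the shares of 16.6% and 4.59% over all tested genes, and the scalings called 3 higher and 2 to 4 lower. Kcnn4, a potassium channel opened by calcium, had 16.1, 11.8 and 8.31 FPKM in ESS and 3.64, 2.50 and 2.54 in NOD, with 6.54, 6.81 and 4.45 in control (log2 change 1.59 ± 0.21, adjusted p = 0.000146). The ESS values were highest in library 1 and lowest in library 3, and each was above every control and every NOD library. Atp1b1, a subunit of an ion pump, was higher, with 23.7, 19.6 and 15.4 FPKM in ESS and 10.1, 12.4 and 11.6 in NOD (log2 change 0.60 ± 0.16, adjusted p = 0.00819). The store-operated calcium channel Orai1 was higher (log2 change 0.37 ± 0.15, adjusted p = 0.037), under no scaling. Itpr3, the receptor that releases calcium from stores, was lower, with 5.80, 6.76 and 5.36 FPKM in ESS and 9.56, 10.3 and 9.52 in NOD (log2 change -0.76 ± 0.12, adjusted p = 0.00336).

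Of 17 tested Rab and SNARE genes of tear exocytosis, Rab26, which serves the maturation of secretory granules, had 13.4, 10.3 and 10.6 FPKM in ESS and 5.04, 4.47 and 5.81 in NOD (log2 change 0.90 ± 0.14, adjusted p = 0.000404), and Stx4a was higher by a log2 change of 0.18 (adjusted p = 0.0445), under no scaling. Rab6b, a Golgi trafficking GTPase not on that list, had 11.2, 8.02 and 8.35 in ESS, 0.0557, 0.126 and 0.135 in NOD and 7.29, 8.90 and 6.62 in control (log2 change 3.07 ± 0.18, adjusted p = 2.39e-07). Of 35 translocon and secretory transport genes 6 were higher and 1 lower (median -0.024), again near the shares over all tested genes. Srp9, a protein of the signal recognition particle, had 26.1, 25.4 and 26.9 FPKM in ESS and 10.47, 9.39 and 8.92 in NOD (log2 change 1.24 ± 0.11, adjusted p = 4.3e-06), and the retrieval receptor Kdelr3 fell, with 20.7, 18.2 and 19.3 FPKM in ESS and 30.8, 25.1 and 30.1 in NOD (log2 change -0.66 ± 0.11, adjusted p = 0.00649). The scalings left 2, 2 and 1 of the higher calls.

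The chaperones and sensors of the endoplasmic reticulum that passed were all lower in ESS. Of 25 tested, 4 were lower and none higher (median -0.21), and the scalings called 12, 5 and 10 lower and none higher. Over all tested genes 4.59% were lower, and 9.35%, 8.41% and 10.6% under the scalings. Dnajb9, a co-chaperone induced by the unfolded protein response, had 33.2, 52.7 and 37.4 FPKM in ESS and 99.4, 68.8 and 78.9 in NOD (log2 change -1.12 ± 0.20, adjusted p = 0.00426). Trib3, a stress-induced pseudokinase, had 1.11, 0.848 and 0.999 FPKM in ESS and 3.45, 3.08 and 2.66 in NOD (log2 change -1.15 ± 0.20, adjusted p = 0.00365). Chac1, a glutathione-degrading enzyme of the same branch, had 4.12, 9.04 and 11.6 FPKM in ESS and 16.4, 17.01 and 16.6 in NOD (log2 change -1.15 ± 0.32, adjusted p = 0.0385). Herpud1, which serves the degradation of misfolded proteins, had 141, 196 and 158 FPKM in ESS and 298, 229 and 207 in NOD (log2 change -0.69 ± 0.15, adjusted p = 0.0231).

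The main chaperone Hspa5 did not pass, with 180.5, 226 and 238 FPKM in ESS and 299.5, 227 and 224 in NOD (log2 change -0.34 ± 0.13, adjusted p = 0.259), and NOD library 1 was the highest of the 6 for Hspa5, Dnajb9 and Herpud1. The endoplasmic reticulum stress element, CCAAT and CCACG separated by any 9 bases, was searched on both strands of the promoter windows and found in 8 of the 22 windows of list members, in none of the 4 called ones, and in 0.119% of all windows.

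Ribosomal protein genes were higher in ESS. Of 60 tested 51 were higher and none lower, with a median of 0.31; the 3 scalings called 21, 31 and 23 higher and none lower. Among all tested genes 16.6% were higher, and 9.28%, 9.54% and 7.33% under the scalings. Of the 60, 54 had relative changes between 0 and 1. A group of 5, Rpl29, Rps18, Rpl34, Rpl30 and Rpl3, exceeded 1. Rpl34 had 76.4, 62.2 and 74.6 FPKM in ESS and 6.95, 7.06 and 7.37 in NOD (log2 change 3.02 ± 0.10, adjusted p = 1.78e-09). Rpl29 had 176, 95.3 and 77.9 FPKM in ESS and 8.37, 8.67 and 9.06 in NOD (log2 change 3.39 ± 0.25, adjusted p = 1.88e-06). Control libraries had 74.0, 72.9 and 81.8 of Rpl34 and 72.9, 107 and 103 of Rpl29.

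Near-identical copies stood beside some of these. Rps18 had 156, 134 and 145 FPKM in ESS and 14.3, 18.6 and 12.5 in NOD (log2 change 3.07), while its copies Gm10260, on chromosome 13, had 1.14, 1.27 and 1.01 FPKM in ESS and 406, 370.1 and 367 in NOD and Gm11361 had 8.65, 5.60 and 6.10 FPKM in ESS and 242, 206 and 205 in NOD. The fall of the copies and the rise of Rps18 lay between the same groups. Over the whole comparison 4.58% of tested genes had a copy of this kind, against 24.4% of the genes called lower by at least 1 on the log2 scale and 7.65% of those called higher by as much. There were 9 pairs in which such a lower gene had a copy called higher, among them Eno1b and Eno1, Gm8797 and Ubb, Pcna-ps2 and Pcna, and Gm4737 and Ahcy. Eno1b, an enolase gene, was listed at 0 in all 3 ESS and all 3 control libraries and had 7.61, 5.37 and 6.27 in NOD at 12 weeks. How reads were divided between copies is not recorded in the sources, so the values of these genes are uncertain.

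Proteasome subunits rose in 17 of 31 tested (median 0.16), with the smallest adjusted p in Psmb5, a catalytic subunit (86.3, 91.8 and 92.0 FPKM in ESS, 51.9, 47.1 and 45.6 in NOD, adjusted p = 9.36e-05), but 5, 6 and 2 were called higher under the 3 scalings. Oxidative phosphorylation genes rose in 12 of 34 (median 0.16; 4, 6 and 3 under the scalings), with the smallest adjusted p in Uqcrb, a subunit of complex III (204, 159.5 and 201 FPKM in ESS and 83.7, 76.6 and 79.5 in NOD, adjusted p = 1.46e-05). Neither list had a member called lower. Psmb5 has 1 near-identical copy. Over all tested genes 16.6% were called higher, and 9.28%, 9.54% and 7.33% under the 3 scalings. The scaled counts of both lists thus lay nearer to the shares of all genes than the main counts did. Heat shock genes rose in 7 of 14 (median 0.37; 5, 6 and 5 under the scalings). Hspa8, the constitutive cytosolic chaperone, had 99.6, 79.5 and 115 in ESS and 37.8, 28.4 and 35.5 in NOD, with 80.0, 77.7 and 75.1 in NOD at 8 weeks (log2 change 1.37 ± 0.17, adjusted p = 0.000104), so that NOD at 12 weeks was the low group. Hsph1, its exchange factor, showed the same order (6.32, 6.23 and 8.53 FPKM in ESS and 2.88, 3.153 and 2.81 in NOD, 6.10, 5.82 and 5.44 at 8 weeks; adjusted p = 0.000257).

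Lysosomal genes rose in 10 of 22 tested (median 0.17; 5, 7 and 3 higher and 1, 0 and 2 lower under the scalings), and the largest rises after Ctss were Laptm5, a lysosomal protein of blood cells (log2 change 0.73 ± 0.20, adjusted p = 0.0114) and Ctsh (log2 change 0.72 ± 0.15, adjusted p = 0.00281). Lipa, the lysosomal acid lipase, rose by a log2 change of 0.56 (adjusted p = 0.0111) and Npc2 by a log2 change of 0.28 (adjusted p = 0.0475), 2 of 9 genes of cholesterol efflux and lysosomal lipid. For both lists the background was 16.6% of all tested genes higher, and 9.28%, 9.54% and 7.33% under the scalings.

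Proliferation genes were higher in ESS in 6 of 13 tested and lower in none (median 0.47; 5 under each scaling). Among all tested genes 16.6% were higher, and 9.28%, 9.54% and 7.33% under the scalings. Top2a, the topoisomerase of dividing cells, had 1.35, 1.30 and 1.24 FPKM in ESS, 0.542, 0.258 and 0.309 in NOD at 12 weeks and 3.148, 1.44 and 2.53 in control (log2 change 0.63 ± 0.16, adjusted p = 0.00695). Stmn1, a microtubule regulator, had 5.57, 6.28 and 4.16 in ESS, 2.42, 1.28 and 1.24 in NOD and 17.7, 9.80 and 14.0 in control (log2 change 1.15 ± 0.21, adjusted p = 0.00154). The replication helicase subunit Mcm2 had 4.21, 5.80 and 3.82 FPKM in ESS and 2.42, 1.81 and 2.19 in NOD (log2 change 0.70 ± 0.18, adjusted p = 0.0071). In Stmn1 and Top2a the order was control, ESS and then NOD, with every control library above every ESS library; levels of Top2a and Mcm2 were low.

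Epithelial genes were higher in 6 of 22 tested (median 0.065; 5, 4 and 3 higher and 0, 0 and 1 lower under the scalings), among them the transcription factors Grhl2 (11.2, 9.88 and 10.1 FPKM in ESS, 6.27, 6.35 and 5.23 in NOD, adjusted p = 0.00126), Barx2, which takes part in lacrimal gland development (11.7, 9.11 and 9.11 FPKM in ESS and 6.01, 5.74 and 4.64 in NOD, adjusted p = 0.00817), and Tfcp2l1 (log2 change 0.49 ± 0.14, adjusted p = 0.0112). Over all tested genes 16.6% were higher, and 9.28%, 9.54% and 7.33% under the scalings. Sox10, of acini and of Schwann cells, rose by a log2 change of 0.39 (adjusted p = 0.0282), under no scaling. Of 12 myoepithelial and basal markers the smooth muscle myosin Myh11 was lower (log2 change -0.50 ± 0.093, adjusted p = 0.0138) and none was higher. Of 7 endothelial markers Emcn was higher (log2 change 0.17 ± 0.093, adjusted p = 0.0424), under no scaling.

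Of 27 tested extracellular matrix genes 2 were higher, a smaller share than the 16.6% of all genes, with a list median of -0.0015. Mmp3, the matrix protease stromelysin 1, had 18.4, 11.8 and 16.0 FPKM in ESS, 0.929, 0.385 and 0.896 in NOD and 14.9, 9.75 and 7.70 in control (log2 change 3.11 ± 0.26, adjusted p = 4.87e-06). Tgfb1 rose by a log2 change of 0.30 (adjusted p = 0.0112). Among 12 growth factor genes, 2 were higher, near the 16.6% of all genes: Igfbp2 (15.8, 17.2 and 17.7 FPKM in ESS and 8.15, 7.93 and 7.47 in NOD, adjusted p = 0.000473) and Vegfa, the main angiogenic factor (15.1, 18.1 and 16.5 FPKM in ESS and 9.73, 9.25 and 9.09 in NOD, adjusted p = 0.00256).

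Agt, which codes for angiotensinogen, had 27.0, 18.6 and 3.88 FPKM in ESS and 0.222, 0.656 and 0.5 in NOD (log2 change 3.14 ± 0.73, adjusted p = 0.00854), and did not pass with ESS library 3 alone (adjusted p = 0.296); control libraries had 17.7, 1.68 and 19.9. Of 14 clock genes the repressor Nr1d1 was lower in ESS, with 6.99, 3.61 and 3.91 FPKM in ESS and 13.1, 25.8 and 23.8 in NOD (log2 change -2.02 ± 0.38, adjusted p = 0.00505), Cry2 was lower (log2 change -0.69 ± 0.15, adjusted p = 0.0169) and Cry1 higher (log2 change 0.59 ± 0.15, adjusted p = 0.0062). The labels give no hour of tissue collection. Among 10 tested Sjogren autoantigen genes, Ica1 (log2 change 0.35 ± 0.095, adjusted p = 0.00485) and Car6 were higher.

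The remaining rule-named falls were Tpm3-rs7, a tropomyosin-related gene (1.02, 1.05 and 1.28 FPKM in ESS, 27.9, 24.8 and 25.0 in NOD, adjusted p = 5.52e-10), the histone gene Hist1h2bk, which has 9 near-identical copies (0.53, 0.201 and 0.684 FPKM in ESS and 8.29, 9.16 and 7.64 in NOD, adjusted p = 3.72e-07), Calml4, a calmodulin-like gene (0.117, 0 and 0.0775 FPKM in ESS and 5.32, 5.34 and 4.80 in NOD, adjusted p = 3.74e-08), and BC051019 (6.00, 6.12 and 3.06 FPKM in ESS and 25.9, 28.5 and 37.1 in NOD, adjusted p = 2.42e-05). All 4 were lower in every ESS and control library than in every NOD library of either age. In Tpm3-rs7 every NOD library of either age had 24.6 FPKM or more and every ESS and control library 1.72 or less.

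**Figure D5:**
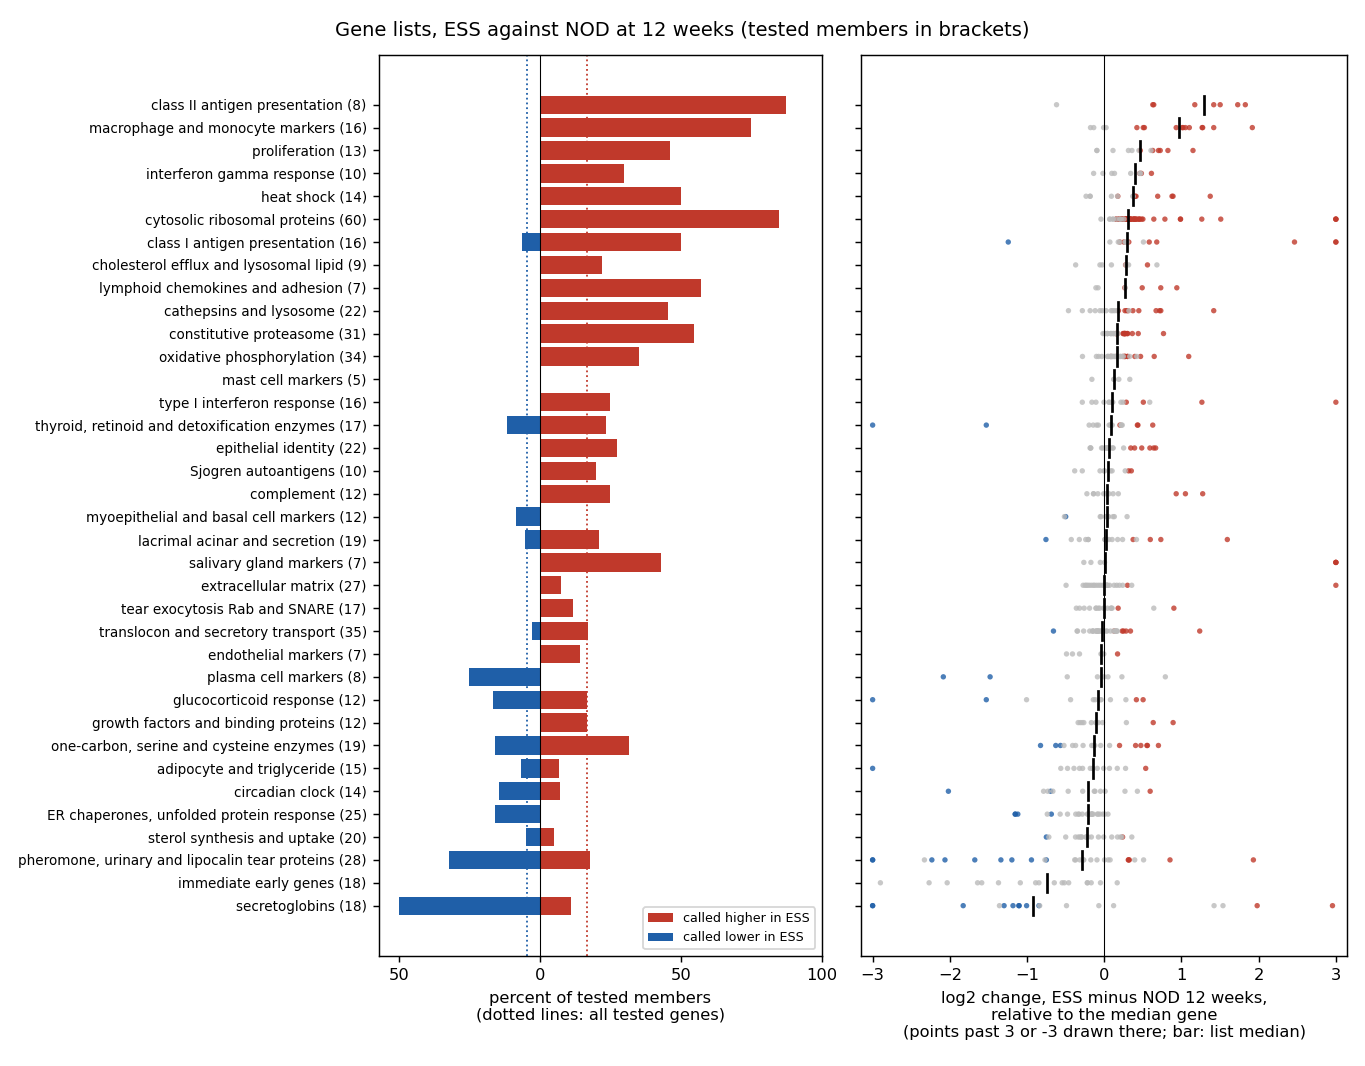
Left, percent of the tested members of each list with at least 5 such members called higher (red, to the right) or lower (blue, to the left) in ESS, with dotted lines at 16.6% and 4.59% for all tested genes. Right, log2 change of each member relative to the median gene, coloured by its call, with a bar at the list median, from 1.30 for class II antigen presentation to -0.93 for secretoglobins.

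Immediate early genes, which switch on within minutes of a stimulus, varied within the NOD group. None of 18 tested passed, with a median of -0.75. Fos had 4.15, 5.59 and 5.67 FPKM in ESS and 109, 77.3 and 7.49 in NOD (log2 change -2.90 ± 1.103, adjusted p = 0.0977). Egr1 had 1.39, 2.053 and 1.81 FPKM in ESS and 22.8, 14.4 and 1.98 in NOD (adjusted p = 0.11). Atf3 had 3.93, 4.76 and 8.75 FPKM in ESS and 71.7, 38.8 and 7.31 in NOD (adjusted p = 0.168). NOD libraries 1 and 2 were high and NOD library 3 near the ESS libraries in all 3 genes. Control and NOD libraries at 8 weeks also varied, with 14.6, 2.20 and 62.9 and 39.1, 15.6 and 113 FPKM of Fos.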

How the data were processed

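RNA from mouse lacrimal glands was extracted with Trizol and sequenced from stranded libraries, per the labels' protocols. Reads were placed on the mouse genome GRCm38, per the submitters' processing notes; no source used here names the aligner, gene models or counting. The deposited tables hold FPKM per gene and per transcript, per the file headers, and values are as the authors deposited them. Only 45.5% to 55.5% of the low values per library lay within 0.1 of a whole number of reads, where chance puts 20%, so reads were not recovered and the depth is unknown in absolute terms.

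The change between ESS and NOD at 12 weeks was fitted with limma 3.58.1 (R 4.3.3, trended variance) on log2(FPKM + 1), a scale that understates the fold of low genes, over the 9809 genes that reached 1 FPKM in 3 or more of the 6 libraries. The 4 groups of 3 libraries shared 1 estimate of the spread, and p-values were adjusted by the Benjamini-Hochberg method and called at 0.05. The fit was tested on simulated data. Alternatives were 3 scalings, other pseudocounts and filters, the 6 libraries alone, a replicate block, summed transcripts, ESS library 3 as the only ESS library and each library left out. Copies were found with blastn 2.17.0.

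The gene lists and named genes were chosen with earlier results of these data known. Named were the 12 largest rises and 12 largest falls among called genes without overlap and at least 5 FPKM in the higher group (predicted genes left out), the 4 members of each list with the smallest adjusted p, the 6 genes in which ESS library 3 differed most from the other ESS libraries, and the 10 most abundant genes. Other genes in the text were chosen after their values were seen. A few genes that the rule names are not reported here.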

Additional observations from a re-analysis of the deposited data

How the results depend on the processing

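Of the 2082 genes called, 1632 were higher and 450 lower in ESS. The higher count was 910 under quantile normalization, 936 with library medians centred, 719 after rescaling with the top 50 genes left out and 380 with ESS library 3 alone; the lower count was 917, 825, 1037 and 209, and 261 with a minimum of 5 FPKM, where fewer genes were tested. ESS library 3 alone gave 589 calls in all. Leaving out 1 library gave 1246 (without NOD library 2) to 1896 calls, 970 to 1579 of them higher and 276 to 377 lower; without NOD library 3 there were 1333. With a replicate block the count was 2153, 1679 higher and 474 lower. Libraries with the same number did not deviate together (correlations -0.059, 0.00069 and -0.020). With 3 libraries a group and no pairing stated in the labels, this cannot tell whether the numbers pair them. Of 170 named genes 125 were called, 100 of these under all 3 scalings and 54 under every alternative that gave a value. No called gene reversed. Among uncalled genes the sign turned for 2310057J18Rik (-0.75), Gm1553 (0.080) and Mbp (0.031) with ESS library 3 alone, for Gm1553 (0.26), Mucl2 (0.36) and Obp1a (0.068) under quantile normalization, for Pip (-0.081) after rescaling and for Agpat2 (-0.090) with summed transcripts; leaving out 1 library gave -0.021 to 0.69 for Cma1 and -0.048 to 0.0087 for Mbp, all on the log2 scale before the median is removed. The cause was not tested. Without counts, the precision of low values is unknown.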

Other observations

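Neighbouring genes held several of the larger differences. The richest run of 20 neighbouring tested genes was sought on each chromosome. The one at GRCm38 chr17:35979851-39540847 had 9 called changes of at least 1 on the log2 scale, and the one at chr7:31032722-33288611 had 8. Those at chr13:21495223-23543392 and chr4:133532542-134473843 had 7 each. Genes with near-identical copies lie in the runs on chromosomes 17, 7 and 13, so their values are uncertain. Among them are Esp16 on chromosome 17, several secretoglobins on chromosome 7 and the histone genes on chromosome 13. Over all of chromosomes 17, 7, 13 and 4 such changes made up 6.26%, 4.86%, 5.46% and 3.58% of tested genes. By chromosome, 28.5% of tested genes were called on chromosome 17, 28.0% on chromosome 15 and 13.7% on X. Erdr1 had 8.14, 20.5 and 42.6 FPKM in ESS and 81.2, 82.4 and 77.8 in NOD at 12 weeks, so the ESS libraries differed among themselves and all lay below NOD. Erdr1 also has a near-identical copy.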
